A study of Zea mays with 12 samples.

Results

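Aminoacyl-tRNA synthesis was represented by the genes whose pathway annotation in the deposited table names the KEGG pathway Aminoacyl-tRNA biosynthesis, which were 163 of 52932 genes. Descriptions and protein domains in the same table divided them into 84 enzyme genes and 79 other genes. The enzyme genes were 80 aminoacyl-tRNA ligases for 20 amino acids, 3 subunits of the glutamyl-tRNA amidotransferase and 1 gene taken as methionyl-tRNA formyltransferase. The last, Zm00001eb156380, was placed by its formyl transferase domain, as its description reads uncharacterized protein. The other 79 came from families such as dirigent proteins, Sec14-like lipid transfer proteins and Ovate family proteins, and 1 of them, Zm00001eb174780, was described as a cysteine ligase in 1 column but as a peptidase in another. The pathway label was taken to hold for the 84 enzyme genes, although another description column differed for some of them. There Zm00001eb430980, counted as a cysteine ligase, was called a subunit of a nuclear transcription factor. NewGene_14509, counted as a serine ligase, was called a glyoxalase-like protein, and the lysine ligase NewGene_4341 was called an aspartate ligase.

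Aminoacyl-tRNA ligases, also called aminoacyl-tRNA synthetases, attach each amino acid to its matching tRNA, and thereby supply the ribosome with its substrates. Plants translate in the cytosol, the chloroplast and the mitochondrion, all ligases are encoded in the nucleus, and in Arabidopsis many ligases are imported into both organelles. Organelles also charge the tRNA of glutamine by way of glutamate, which the amidotransferase GatCAB converts on the tRNA, and they start proteins with a formylated methionine made by the formyltransferase.

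The series measured RNA of whole maize plants (Zea mays) with the Bacillus velezensis strain BV-3 or as the control, labelled CK, in plants labelled disease susceptible or disease resistant. Treatment and disease class together gave 4 groups of 3 libraries, which the labels call separate biological samples and which are named here by group and number, as in BV-3 resistant 1. The titles of the CK libraries end in a code that goes with the disease class, without saying whether it names a maize line, and the labels give no age of the plants, dose of BV-3 or time of sampling. Nothing in the labels says whether the 3 plants or pools of a group were grown apart, so the p-values measure the spread between these samples.

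Total counts were between 27 and 37.8 M per library. Levels are given as FPKM, that is, fragments scaled to the length of the gene and to the mapped total of the library, which the authors computed and which allows levels to be set side by side between genes. Some libraries stood apart from their labels or from their group. Of 339 genes that had counts in all BV-3 resistant libraries and almost none in the BV-3 susceptible ones, 0.59% were above 1 CPM in the library labelled CK susceptible 1, but 94.4 and 95.0% were in those labelled CK susceptible 2 and 3, close to the 93.8 to 97.6% of the CK resistant libraries. Of 246 genes with the opposite pattern, 98.0% were above 1 CPM in CK susceptible 1, and 0.813 and 1.63% in CK susceptible 2 and 3. CK susceptible 1 was therefore the only library of its group with the marker pattern of the BV-3 susceptible libraries, and values are also given against it alone. CK resistant 2 differed from the 11 other libraries in tissue markers. Its photosynthesis genes summed to 2447 FPKM, where the others had 17176 to 61023, and its cytosolic ribosomal proteins to 86242 FPKM, where the others had 10044 to 22568. Results that rest on it are given with and without it.

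The stated location of an enzyme is that of its closest Swiss-Prot description. By it, 22 enzyme genes were cytosolic, 48 organellar and 14 had no stated location. The organellar genes comprised 39 described as chloroplastic/mitochondrial and 9 ligases of glycine, threonine and valine described as "mitochondrial 1", a class whose Arabidopsis counterparts serve both the cytosol and the mitochondrion. This division of the organellar genes was made after their values were seen. Chloroplastic/mitochondrial ligases were present for 19 amino acids, all but glutamine, which the amidotransferase supplies in organelles. Cytosolic ligases were named for 11 amino acids and ligases of no stated location for 5. For arginine and cysteine, only chloroplastic/mitochondrial descriptions were found, and 1 of the cysteine genes, Zm00001eb351350, was called cytoplasmic in another description column.

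Of the 84 enzyme genes, 78 had enough counts to be tested, 3 had no count in any library, and 76 had a mean of at least 1 FPKM over the 12 libraries. Among the tested genes, the classes had like levels, with a median of the mean FPKM of 15.3 for the cytosolic class, range 0.451 to 57.1, and of 18.7 for the chloroplastic/mitochondrial class, range 1.48 to 47.9. The "mitochondrial 1" class had a median of 17.2 FPKM and the class of no stated location one of 18.7 FPKM. The 79 other members, of which 59 were tested, had a median of 4.75 FPKM.

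The most abundant cytosolic gene was the tryptophan ligase Zm00001eb054210, with 58.6, 58.9 and 48.8 FPKM in the libraries labelled CK susceptible, 43.1, 44.5 and 40.6 in BV-3 susceptible, 63.3, 114 and 61.1 in CK resistant and 47.3, 44.5 and 59.7 in BV-3 resistant. Leaving CK resistant 2 aside, its 11 other values lay within a narrow band, in which the BV-3 susceptible libraries were below all CK libraries. The proline ligases Zm00001eb073240 and Zm00001eb202580, the asparagine ligase Zm00001eb341390, the phenylalanine ligase alpha subunit Zm00001eb255720 and the aspartate ligase Zm00001eb231430 followed, at 88.8, 99.6, 80.4, 58.0 and 56.3 FPKM in CK resistant 2 and between 15.2 and 47.3 FPKM in all 11 others. In each of these 6 genes CK resistant 2 was the highest of the 12 libraries.

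The most abundant chloroplastic/mitochondrial gene was the proline ligase Zm00001eb300750, with 90.3, 61.0 and 79.2 FPKM in the libraries labelled CK susceptible, 32.3, 17.0 and 59.7 in BV-3 susceptible, 49.2, 24.3 and 38.9 in CK resistant and 48.3, 23.6 and 50.9 in BV-3 resistant. The CK susceptible libraries were above all others, and the second library was the lowest of its group in all 4 groups. The phenylalanine ligase Zm00001eb153980 had 68.9, 68.5 and 66.9 FPKM in CK susceptible, 23.7, 18.8 and 37.4 in BV-3 susceptible, 54.4, 22.8 and 37.4 in CK resistant and 35.5, 17.8 and 41.7 in BV-3 resistant. Its CK susceptible values were again above the other 9. The arginine ligase Zm00001eb282310, also among the most abundant organellar genes, differed from both. It had 49.2, 36.1 and 36.3 FPKM in CK susceptible, 37.4, 31.4 and 51.2 in BV-3 susceptible, 45.4, 75.6 and 40.5 in CK resistant and 32.4, 31.6 and 36.7 in BV-3 resistant. CK resistant 2 was its highest library, and its susceptible groups overlapped.

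**Figure D1:**
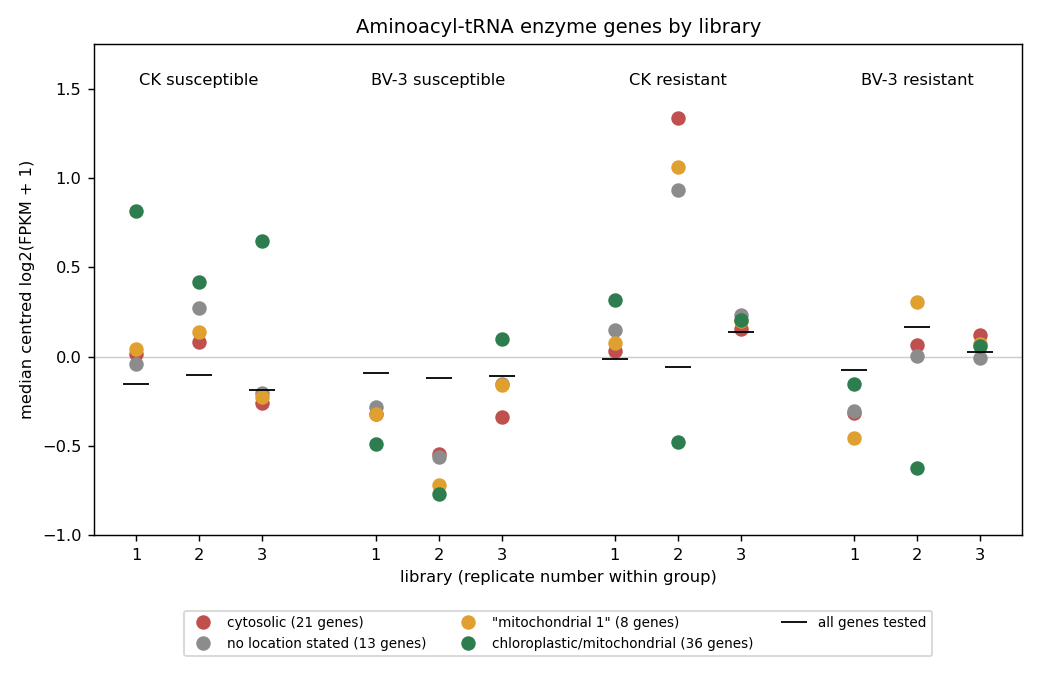
Median over each class of enzyme genes of log2(FPKM + 1) minus the gene's mean over the 12 libraries (y axis), for each library by group (x axis); points are classes and black dashes are the median of all genes tested. The chloroplastic/mitochondrial class is at 0.82, 0.42 and 0.65 in the libraries labelled CK susceptible, and the cytosolic class is at 1.34 in CK resistant 2 and between -0.55 and 0.16 in the 11 others.

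Summed over the class, the chloroplastic/mitochondrial genes held 1139, 935 and 1047 FPKM in the libraries labelled CK susceptible, 458, 368 and 727 in BV-3 susceptible, 848, 517 and 752 in CK resistant and 598, 414 and 678 in BV-3 resistant. The lowest CK susceptible library was above the highest of every other group, and the highest BV-3 susceptible library, at 727 FPKM, was above all BV-3 resistant ones and within the range of CK resistant. The cytosolic genes held 356, 345 and 279 FPKM in CK susceptible, 267, 241 and 292 in BV-3 susceptible, 363, 928 and 356 in CK resistant and 275, 341 and 373 in BV-3 resistant. Their sums overlapped between all groups that were compared except for CK resistant 2, the single library outside the range of 241 to 373 FPKM. The ratio of the cytosolic to the chloroplastic/mitochondrial sum was accordingly 0.266 to 0.369 in CK susceptible and 0.402 to 0.655 in BV-3 susceptible, with no overlap, whereas it was 0.428, 1.80 and 0.473 in CK resistant and 0.460, 0.824 and 0.549 in BV-3 resistant. The plot of class medians by library and the heatmap of single genes show this split of classes. In such bulk samples, fewer cells of a type and less RNA per cell cannot be told apart.

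**Figure D2:**
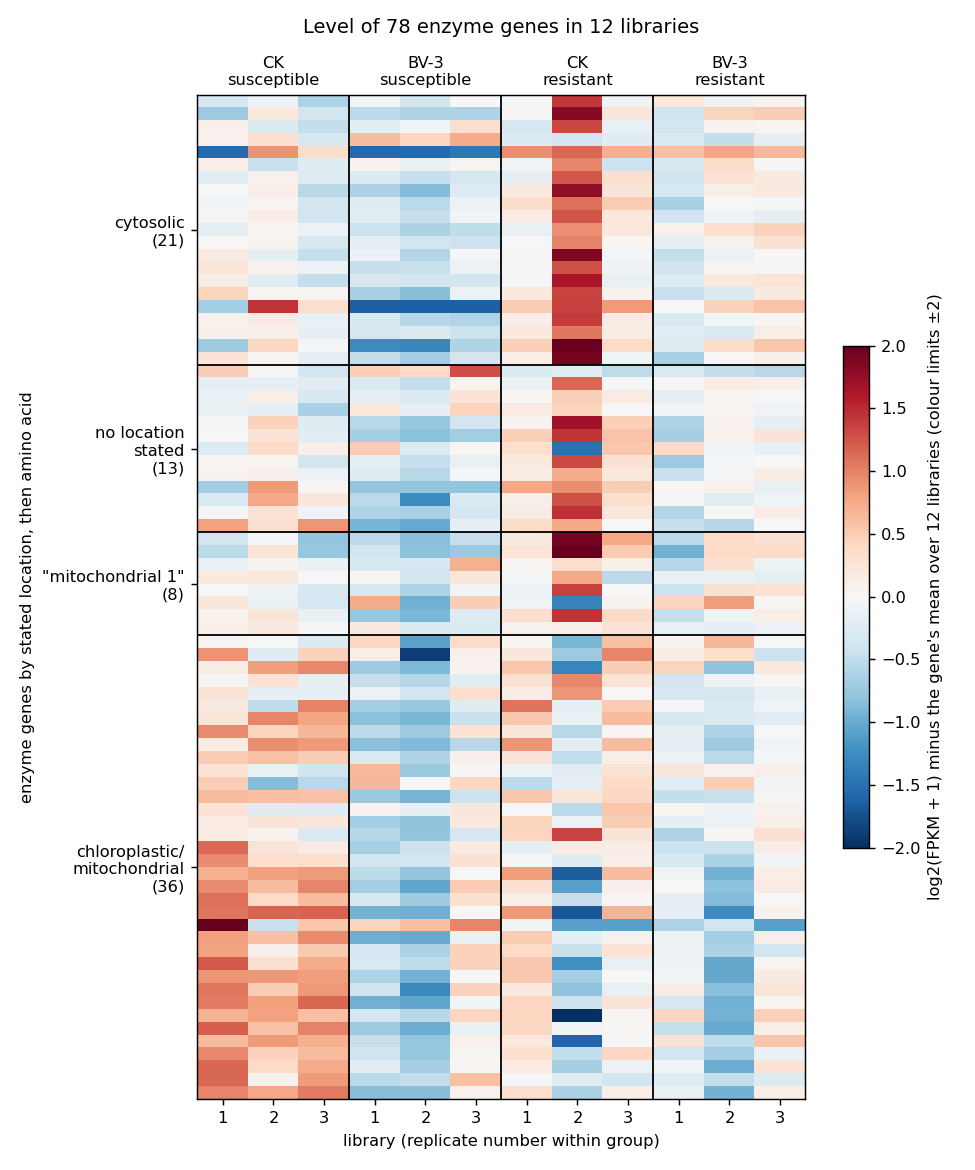
Level of each tested enzyme gene (rows, grouped by stated location and ordered by amino acid) in each of the 12 libraries (columns), as log2(FPKM + 1) minus the gene's mean over the libraries, with colour limits of -2 and 2. The chloroplastic/mitochondrial rows are mostly red in the 3 libraries labelled CK susceptible, and the cytosolic rows are red in CK resistant 2, where most chloroplastic/mitochondrial rows are blue.

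The first comparison asked how the genes differed between BV-3 and CK in plants labelled susceptible. In edgeR's quasi-likelihood test with Benjamini-Hochberg adjustment, 12 of the 137 tested members passed an adjusted p of 0.05, against 6.20% of all 34291 genes tested. Of these, 10 fell and 2 rose, where 3.90% of all genes were called lower and 2.30% higher. The enzyme genes among them were 9, and all 9 fell. By class, 6 of 36 chloroplastic/mitochondrial genes fell, 1 of 21 cytosolic genes, 2 of 13 with no stated location and 0 of 8 "mitochondrial 1" genes, and at an unadjusted p under 0.05 the counts of lower genes were 17, 3, 3 and 0, against 15.0% of all genes. Counted as organellar genes together, 6 of 44 fell. DESeq2 and limma likewise called 0 of 8 "mitochondrial 1" genes. DESeq2 called 26 members, against 20.9% of all genes it tested, and limma on log2(FPKM + 1) called 14, against 6.63%. edgeR with RLE size factors called 12 (6.69% of all genes), with CK susceptible 2 and 3 and CK resistant 2 left out 0 (0.00267%), and with the replicate block 5 (1.59%). These calls depended on single libraries: 22 members were called without CK resistant 2 (14.9% of all genes) and 19 without CK susceptible 1 (19.5% of all genes), but 0 or 1 when any of the 10 others was left out. Those 10 fits called only 0 to 76 genes of the whole table, so the loss was not particular to the members.

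The whole chloroplastic/mitochondrial class lay low under BV-3. Its median log2 fold change was -1.01, against 0.07 for all genes, 32 of 36 genes were below 0, and in 23 of 36 the BV-3 libraries lay entirely below the CK libraries, a pattern found in 14.1% of all genes. The cytosolic class had a median of -0.37, with 8 of 21 genes lower without overlap. The class of no stated location had a median of -0.32, with 5 of 13 lower without overlap, and the "mitochondrial 1" class one of -0.22, with 1 of 8. The organellar genes together had a median of -0.86.

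Set against CK susceptible 1 alone, all 3 BV-3 susceptible libraries were lower in 31 of 36 chloroplastic/mitochondrial genes, or 86.1%, compared with 26.1% of all genes. The same held for 15 of 21 cytosolic genes, 7 of 13 with no stated location and 3 of 8 "mitochondrial 1" genes. With CK susceptible 2 and 3 left out of the fit, the CK susceptible arm was a single library, whose spread is taken from the other groups. In that fit the chloroplastic/mitochondrial median was -1.20, 36 of 36 genes were below 0 and 12 had an unadjusted p under 0.05 in edgeR's test, but 0 of 37903 genes passed the adjusted p. Calls of single enzymes were not made in that smaller fit, in which the class kept its direction.

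**Figure D3:**
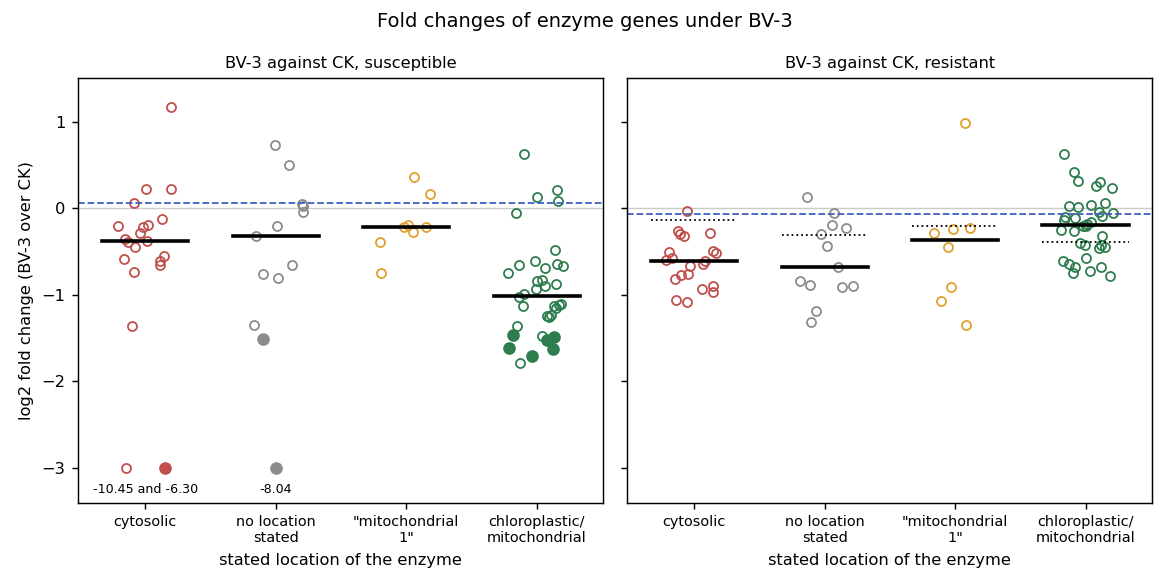
Log2 fold changes of BV-3 over CK (y axis) for each tested enzyme gene by stated location (x axis), in the susceptible groups (left) and the resistant groups (right). Filled points passed an adjusted p of 0.05, solid bars are class medians, dotted bars the medians without CK resistant 2, the dashed line is the median of all genes, and points below -3 are drawn at the edge with their value; the chloroplastic/mitochondrial median is -1.01 on the left and -0.19 on the right.

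Among the chloroplastic/mitochondrial ligases that fell, the serine ligase Zm00001eb166980 had 51.6, 44.9 and 56.5 FPKM in the libraries labelled CK susceptible and 12.3, 11.7 and 24.0 in BV-3 susceptible. All BV-3 libraries were below all CK libraries, and the log2 fold change was -1.70 ± 0.40 (SE, edgeR adjusted p = 0.0427). In the resistant groups it had 33.7, 18.5 and 30.1 FPKM under CK and 19.9, 12.3 and 26.0 under BV-3, which overlapped.

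The lysine ligase Zm00001eb063750 had 42.9, 36.7 and 46.9 FPKM under CK and 11.7, 11.3 and 21.5 under BV-3 in the susceptible groups, again without overlap, and changed by -1.48 ± 0.38 on the log2 scale (SE, edgeR adjusted p = 0.047). The tryptophan ligase Zm00001eb153590 had 32.0, 20.7 and 27.8 FPKM under CK and 7.85, 6.25 and 12.0 under BV-3, and changed by -1.62 ± 0.42 (adjusted p = 0.0479). For both genes the 2 resistant groups overlapped, at 34.3, 20.7 and 25.5 against 22.1, 14.5 and 26.1 FPKM for lysine and at 18.2, 12.9 and 13.9 against 9.54, 6.20 and 14.8 FPKM for tryptophan.

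A pair of asparagine ligases of the chloroplastic/mitochondrial class was also called. Zm00001eb105060 had 29.9, 52.1 and 49.4 FPKM under CK and 14.5, 14.1 and 17.9 under BV-3 in the susceptible groups, a change of -1.52 ± 0.38 (SE, edgeR adjusted p = 0.0454), and its paralog Zm00001eb120130 had 8.68, 15.1 and 13.3 against 3.63, 3.36 and 5.01 FPKM, a change of -1.63 ± 0.43 (adjusted p = 0.0489). In each gene the groups did not overlap, and CK susceptible 1, the library with the markers of the BV-3 susceptible ones, was the lowest of the 3. In the resistant groups Zm00001eb105060 had 50.2, 23.1 and 41.4 FPKM under CK and 23.9, 15.8 and 25.5 under BV-3, which overlapped. The overlap came from CK resistant 2, at 23.1 FPKM, while CK resistant 1 and 3 were above all BV-3 resistant libraries. Zm00001eb120130 had 11, 6.42 and 11.8 against 5.54, 5.78 and 6 FPKM there, which did not overlap, and its log2 fold change of -0.68 ± 0.42 was not called (edgeR adjusted p = 0.601).

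The cysteine ligase Zm00001eb063470, 1 of several genes described as CPS1, had nearly equal values in the CK susceptible libraries. It had 15.4, 14.9 and 14.9 FPKM in the libraries labelled CK susceptible and 5.26, 4.52 and 6.78 in BV-3 susceptible, and changed by -1.47 ± 0.27 (SE, edgeR adjusted p = 0.0398). The resistant groups did not overlap either, with 14.3, 11.5 and 13.0 FPKM under CK and 6.52, 6.71 and 9.66 under BV-3, where the change was -0.68 ± 0.26 and did not pass (edgeR adjusted p = 0.444).

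Zm00001eb156380, taken as the formyltransferase by its protein domain, is described as an uncharacterized protein and has no stated location in the table. It had 15.8, 11 and 16.6 FPKM under CK and 4.04, 3.75 and 7.39 under BV-3 in the susceptible groups. It fell without overlap, with a log2 fold change of -1.50 ± 0.39 (SE, edgeR adjusted p = 0.0477). The resistant groups had 11.4, 15.5 and 8.60 FPKM under CK and 5.95, 5.49 and 8.70 under BV-3, and CK resistant 2 was the highest of its group.

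The 3 amidotransferase subunits did not pass the test. Subunit A, Zm00001eb068770, which carries the amidase activity in bacteria, had 50.5, 43.7 and 52.6 FPKM in CK susceptible and 13.5, 13.5 and 26.7 in BV-3 susceptible, with a log2 fold change of -1.47 ± 0.43 (SE, edgeR adjusted p = 0.0607). Subunit B, Zm00001eb197630, which binds the tRNA in bacteria, had 41.6, 24.2 and 31.4 against 15.5, 11.1 and 18.5 FPKM, with -1.13 ± 0.42 (adjusted p = 0.121). The BV-3 libraries lay below the CK libraries in both, but not in the small subunit C, Zm00001eb218450, with 57.1, 26.6 and 46.4 against 16.9, 17.6 and 38.6 FPKM and a log2 fold change of -0.87 ± 0.40 (adjusted p = 0.189). In the resistant groups the log2 fold changes of the 3 subunits were -0.16, 0.06 and -0.04.

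**Figure D4:**
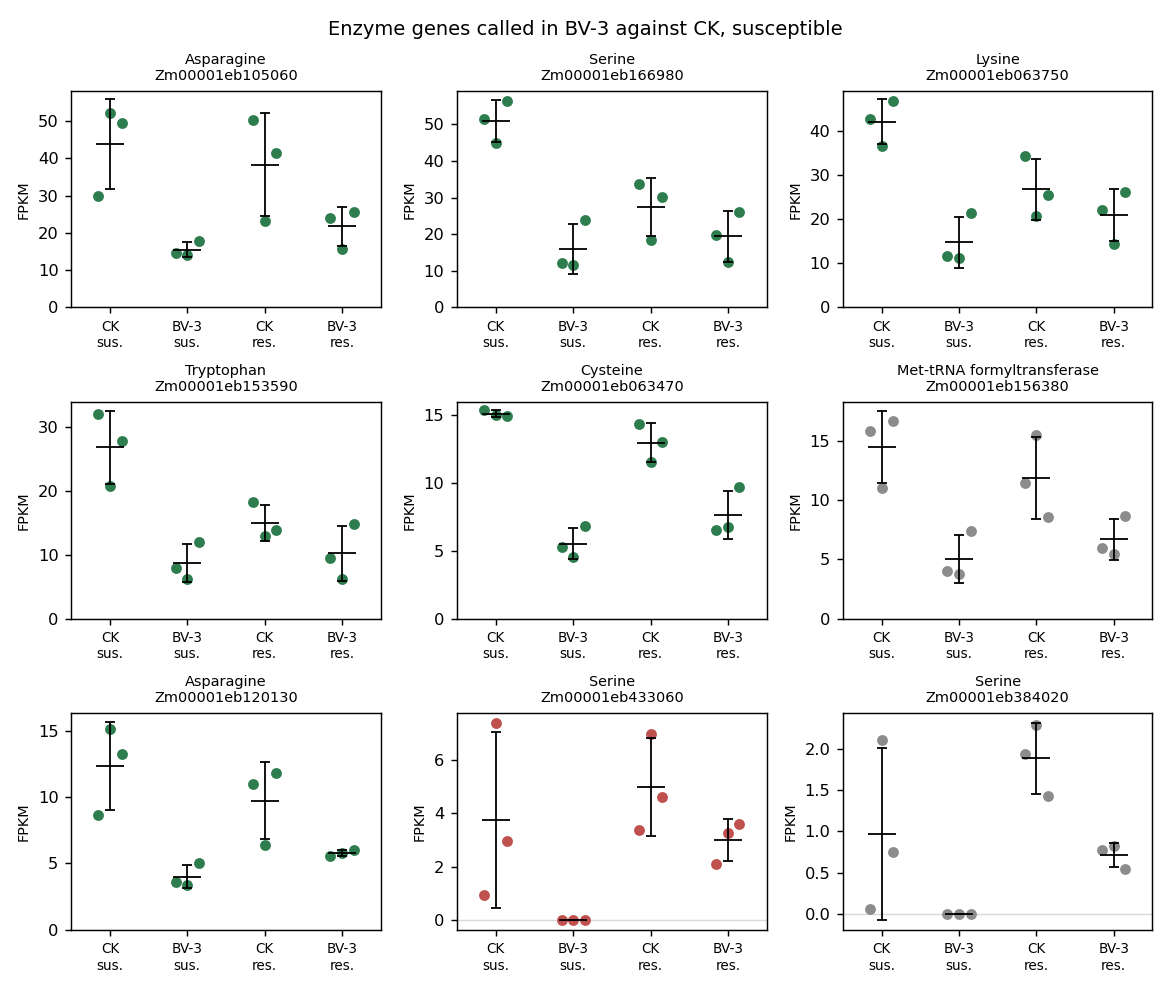
FPKM (y axis, from 0) of the 9 enzyme genes that passed the test in BV-3 against CK among the libraries labelled susceptible, in each of the 4 groups (x axis); points are libraries and bars are the mean ± SD of 3. In every panel the 3 BV-3 susceptible libraries lie below the 3 CK susceptible libraries.

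The remaining called enzyme genes were a pair of serine ligases without counts in any BV-3 susceptible library. The cytosolic Zm00001eb433060 had 0.931, 7.38 and 2.94 FPKM in the libraries labelled CK susceptible, 0, 0 and 0 in BV-3 susceptible, 3.39, 6.98 and 4.60 in CK resistant and 2.11, 3.27 and 3.60 in BV-3 resistant (edgeR adjusted p = 0.0316 for the susceptible groups). Against a floor of 3 counts per library it was at least 56.7-fold lower than the mean of the CK libraries, and at least 16.7-fold lower than CK susceptible 1. It belonged to the 339 genes with counts in all BV-3 resistant and almost none in BV-3 susceptible libraries, so for this gene the treatment and the marker pattern of CK susceptible 2 and 3 cannot be told apart.

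Zm00001eb384020, a serine ligase of no stated location, had 0.0575, 2.11 and 0.751 FPKM in CK susceptible, 0 in each BV-3 susceptible library, 1.93, 2.28 and 1.43 in CK resistant and 0.771, 0.828 and 0.544 in BV-3 resistant (edgeR adjusted p = 0.0398). CK susceptible 1 held 2 counts of it, under the floor, and the bound of at least 10.7-fold lower than the mean of the CK libraries comes from CK susceptible 2 and 3. The cytosolic glutamate ligase Zm00001eb402830, named after its values were seen, was listed at 0, 4.43 and 2.75 FPKM in CK susceptible and at 0, 0 and 0.0872 in BV-3 susceptible, and did not pass (edgeR adjusted p = 0.061). All 3 genes were present in each resistant library.

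Summed by amino acid, the chloroplastic/mitochondrial ligases were lower under BV-3 without overlap for 17 of 19 amino acids in the susceptible groups, and higher for 0. The ratio of the BV-3 to the CK mean ran from 0.293 for leucine to 0.903 for arginine, with a median of 0.472. Cytosolic ligases were lower without overlap for 5 of 11 amino acids, those of no stated location for 2 of 5 and the "mitochondrial 1" ligases for 0 of 3. Among single genes, 14.1% of all tested were lower without overlap and 18.6% higher, and no such share was computed for sums.

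Arginine and cysteine, for which no ligase was placed in the cytosolic class, differed from the rest of this class in CK resistant 2, an observation made after the values were seen. The arginine ligases summed to 66.1, 56.6 and 51.1 FPKM in the libraries labelled CK susceptible, 49.2, 42.3 and 65.4 in BV-3 susceptible, 66.1, 109 and 60.8 in CK resistant and 45.0, 47.1 and 53.2 in BV-3 resistant. The cysteine ligases summed to 75.5, 64.2 and 59.7 FPKM in CK susceptible, 49.0, 37.8 and 59.5 in BV-3 susceptible, 74.5, 84.9 and 81.6 in CK resistant and 48.4, 58.1 and 66.3 in BV-3 resistant. For these 2 amino acids CK resistant 2 was the highest of the 12 libraries, as it was for all 11 amino acids of the cytosolic class. Within cysteine the genes differed: Zm00001eb351350, the gene called cytoplasmic in another description column, had 47.3 FPKM in CK resistant 2 and a mean of 23.1 in CK resistant 1 and 3, whereas the called gene Zm00001eb063470 was lowest in CK resistant 2 among the 3 CK resistant libraries.

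The second comparison asked the same of plants labelled resistant. No gene of the table passed edgeR's test (0 of 34291, or 0%), hence 0 of 137 members, although 15 enzyme genes were lower and 0 higher at an unadjusted p under 0.05, where 5.13 and 4.94% of all genes were, or 10.1% in either direction. That count of enzyme genes includes CK resistant 2, the highest of the 12 libraries for 37 of the 78 tested enzyme genes. DESeq2 called 2 members and 1044 genes (3.31%), and limma on log2(FPKM + 1) called 0 members and 6 genes (0.0175%).

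Here the chloroplastic/mitochondrial class had the median nearest to that of all genes, where it had been the lowest of the classes in the susceptible groups. The median log2 fold change was -0.61 for cytosolic genes, with 21 of 21 below 0, -0.67 for genes of no stated location, -0.37 for "mitochondrial 1" genes and -0.19 for chloroplastic/mitochondrial genes, against -0.07 for all genes. This order of the medians depended on CK resistant 2. Without it the medians were -0.14, with 13 of 21 below 0, -0.31, -0.20 and -0.39, with 33 of 36 chloroplastic/mitochondrial genes below 0, against 0.01 for all genes. With all libraries, the BV-3 libraries were lower without overlap in 4 of 21 cytosolic, 5 of 13 unlocated, 2 of 8 "mitochondrial 1" and 4 of 36 chloroplastic/mitochondrial genes, against 9.46% of all genes.

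The enzyme genes with the smallest p in the resistant groups were cytosolic or unlocated. The cytosolic isoleucine ligase Zm00001eb275200 had 18.9, 32.2 and 21.0 FPKM in CK resistant and 8.82, 14.3 and 14 in BV-3 resistant, a log2 fold change of -0.90 ± 0.26 (SE, edgeR adjusted p = 0.368). The groups did not overlap, and CK resistant 2 was the highest. The lysine ligase Zm00001eb049290 had 48.1, 94.2 and 51.6 against 21.3, 36.7 and 41.3 FPKM, with -0.91 ± 0.31 (adjusted p = 0.407). Without CK resistant 2, the CK resistant means of the isoleucine and the lysine ligase were 19.9 and 49.8 FPKM. The BV-3 resistant means were 12.4 and 33.1 FPKM.

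A second lysine ligase, Zm00001eb219500, had 7.57, 25.5 and 10.3 FPKM under CK and 4.32, 7.57 and 6.33 under BV-3 in the resistant groups, with a log2 fold change of -1.19 ± 0.41 (SE, edgeR adjusted p = 0.407). The probable methionine ligase Zm00001eb400100 had 24.4, 54.2 and 26.3 against 12.3, 20.5 and 21.2 FPKM, with -0.90 ± 0.32 (adjusted p = 0.428). In both, the value of CK resistant 2 was more than the sum of the other CK resistant libraries. Without it, their CK resistant means were 8.96 and 25.3 FPKM, against 6.07 and 18.0 in BV-3 resistant.

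CK resistant 2 was compared with the other CK resistant libraries as a description, since it is a single library. In it, 20 of 21 cytosolic genes were above both others, with a median log2 difference of 1.22 on the log2(FPKM + 1) scale. The same held for 12 of 13 genes of no stated location, median 0.58, and for 6 of 8 "mitochondrial 1" genes, median 1.06. Of the chloroplastic/mitochondrial genes, 29 of 36 were below both others and 3 above both, with a median of -0.75, while the median of all genes was -0.10. Of all 34291 genes, 12789 were above both others and 15296 below both. Over all 12 libraries, CK resistant 2 was the highest for 19 of 21 cytosolic genes and 5 of 8 "mitochondrial 1" genes, but for 3 of 36 chloroplastic/mitochondrial ones.

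**Figure D5:**
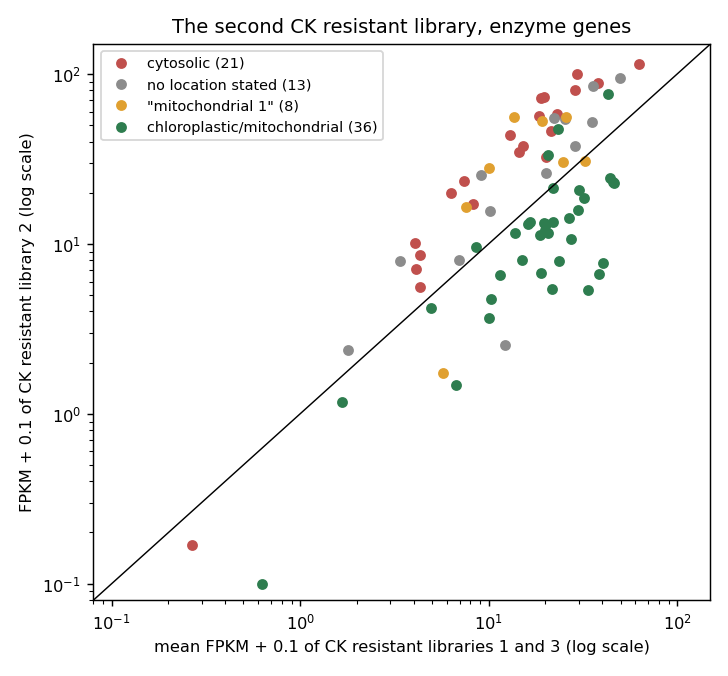
FPKM of CK resistant 2 (y axis) against the mean of CK resistant 1 and 3 (x axis), both as FPKM + 0.1 on log scales, for each tested enzyme gene coloured by stated location; the line marks equal values. Of the cytosolic points 20 of 21 lie above the line and 29 of 36 chloroplastic/mitochondrial points lie below both other libraries.

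By amino acid, the cytosolic sums of CK resistant 2 were 1.84 to 3.70 times the mean of CK resistant 1 and 3, with a median of 2.80 over 11 amino acids. Those of no stated location were 1.30 to 2.40 times it and the "mitochondrial 1" sums 1.39 to 2.60 times. The chloroplastic/mitochondrial sums ran from 0.157 times for leucine to 1.72 times for arginine, with a median of 0.551. The leucine value came from Zm00001eb334790, with 5.25 FPKM in CK resistant 2 and a mean of 33.4 FPKM in the others. The threonine ligase Zm00001eb325920 was likewise at 7.64 FPKM there, against 46.1 and 34.4 FPKM in CK resistant 1 and 3.

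The difference between the BV-3 effects of the resistant and the susceptible groups passed for no gene in edgeR's test (0 of 34291, 0% called, 13.7% at an unadjusted p under 0.05), and so for 0 members. At an unadjusted p under 0.05 the difference was positive in 7 of 78 enzyme genes and negative in 0, against 8.71 and 4.96% of all genes. DESeq2 called 5 members and 1696 genes (5.16%), and limma called 0 members and 2 genes (0.00583%). The chloroplastic/mitochondrial genes had a median difference of 0.81 on the log2 scale, resistant minus susceptible, with 31 of 36 above 0, and cytosolic genes one of -0.30, against -0.13 for all genes. Without CK resistant 2 these medians were 0.57 and 0.39, so the sign of the cytosolic difference turned while that of the chloroplastic/mitochondrial genes did not. A different response of an enzyme class to BV-3 in the 2 disease classes was thus not shown.

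Resistant was also set against susceptible within each treatment, using libraries that the comparisons above share. Under CK, edgeR called 0 members and 0 of 34291 genes (0%), DESeq2 2 members and 1630 genes (5.27%), and limma 0 members and 1 gene (0.00292%). At an unadjusted p under 0.05, 17 of 36 chloroplastic/mitochondrial genes were lower in CK resistant and 0 higher, against 9.58 and 7.78% of all genes, and 19 of 36 were lower without overlap, against 5.95%. Their median log2 difference, resistant minus susceptible, was -0.88, with 33 of 36 below 0, and -0.65 without CK resistant 2. The cytosolic median was 0.42, with 20 of 21 above 0, and turned to -0.16 without CK resistant 2, with 6 of 21 above 0. CK susceptible 2 and 3 carried the marker pattern of the BV-3 resistant libraries, so this contrast does not separate the disease classes as labelled.

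Under BV-3, the class medians were close to that of all genes. The marker genes that separate the disease classes were chosen from these 6 libraries and so do not check their labels. The median log2 difference, resistant minus susceptible, was 0.01 for chloroplastic/mitochondrial, 0.15 for cytosolic, 0.11 for "mitochondrial 1" and 0.10 for unlocated genes, against 0.01 for all genes. edgeR called 0 members and 0 of 34291 genes (0%, 21.9% at an unadjusted p under 0.05), DESeq2 15 members and 4724 genes (14.1%), and limma 7 members and 2389 genes (6.97%). The serine ligase Zm00001eb433060 had the smallest p of the members in edgeR's test (adjusted p = 0.0634).

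Other genes of translation were counted in the same fit, in which 2.30% of all genes were called higher and 3.90% lower. Between BV-3 and CK in the susceptible groups, 1 of 355 cytosolic ribosomal protein genes rose and 23 fell, with a median log2 fold change of -0.45, and 4 of 102 organellar ribosomal protein genes fell and 0 rose, with a median of -1.07. Of 98 cytosolic translation factors, which include initiation and elongation factors, 1 fell and 0 rose, median -0.01, and of 30 organellar translation factors 0 were called, median -0.77, with 4 lower and 0 higher at an unadjusted p under 0.05 in edgeR's test, where 15.0% of all genes were lower. Of 43 tRNA modification and processing genes 4 fell and 0 rose, median -0.30. In the 10 genes of eIF2 and of its kinase GCN2, which senses uncharged tRNA, 0 were called, 0 had an unadjusted p under 0.05, and the median was 0.18. With CK susceptible 2 and 3 left out, the medians were -0.69 for cytosolic and -1.21 for organellar ribosomal proteins. For cytosolic and organellar translation factors they were 0 and -0.98, for tRNA modification -0.15 and for eIF2 and GCN2 0.25.

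In the resistant groups these lists had 0 calls in edgeR's test, as in the 3 remaining comparisons. Their median log2 fold changes were -0.95 for cytosolic and -0.19 for organellar ribosomal proteins, -0.37 for cytosolic and -0.14 for organellar translation factors, -0.50 for tRNA modification and -0.36 for eIF2 and GCN2. Without CK resistant 2 they were 0.35, -0.00046, 0.19, -0.27, -0.39 and -0.12. In CK resistant 2 the median centred log2(FPKM + 1) was 2.29 for cytosolic ribosomal proteins, 1.07 for cytosolic factors, 1.10 for eIF2 and GCN2 and 0.61 for tRNA modification, but -0.26 for organellar ribosomal proteins and -0.76 for organellar factors.

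Markers of tissues were counted alike. Of 84 photosynthesis genes, 3 fell and 0 rose in the susceptible comparison, where 3.90% of all genes were called lower, with a median of -1.16, and of 39 green leaf markers 2 fell and 0 rose, median -0.93. With CK susceptible 2 and 3 left out, the medians of these lists were -1.23 and -1.08. In the resistant groups their medians were 0.82 and 1.32 with CK resistant 2, and 0.31 and 0.83 without it, above 0 where the chloroplastic/mitochondrial enzymes had medians of -0.19 and -0.39. The green leaf markers summed to 28538 to 35367 FPKM in CK susceptible, 10679 to 24202 in BV-3 susceptible, 10312 to 34862 in BV-3 resistant, and 14908, 1435 and 10684 in CK resistant, and between 7 and 12 of the 49 genes matched were listed at 0 in a library. The chlorophyll-bearing share of the tissue and the level per cell cannot be told apart, and the part of the leaf markers in the chloroplastic/mitochondrial values was not tested.

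The 52 genes matched as markers of dividing tissue, such as cyclin B and histones, summed to 2718 FPKM in CK resistant 2 and 2281 in BV-3 resistant 2. In the 10 others the sums were 135 to 909 FPKM. Of the 39 tested, 0 were called in either BV-3 comparison, with medians of 0.60 and -0.04. At an unadjusted p under 0.05 in edgeR's test, 1 of them was higher and 0 lower in each. With CK susceptible 2 and 3 left out, the median in the susceptible comparison turned to -0.27, with 12 of 40 tested genes above 0 and 28 below. Without CK resistant 2 the median in the resistant comparison was 2.28, with 38 of 39 above 0, 17 higher and 0 lower at an unadjusted p under 0.05, and 0 called. Between 8 and 15 of the 52 matched were at 0 in a library. BV-3 resistant 2 did not share the high cytosolic enzyme levels of CK resistant 2, its cytosolic sum being 341 against 928 FPKM. The 29 genes matched as root markers summed to 26.7 to 92.6 FPKM over all libraries, and 10 to 18 of them were at 0 in a library. Of the 13 tested, 1 rose and 0 fell in the susceptible comparison. The medians were 0.10 and 0.50 in the susceptible and resistant comparisons and 1.72 in the resistant one without CK resistant 2. With CK susceptible 2 and 3 left out, the susceptible median was -0.13 over 20 tested genes. The part of these markers in the enzyme values was not tested.

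Among the 79 members that are not described as enzymes, 2 rose and 1 fell in BV-3 against CK in the susceptible groups. Dirigent protein 1, Zm00001eb166630, of a family that guides the coupling of lignan precursors, had 3.03, 1.11 and 0.818 FPKM in CK susceptible and 9.20, 12.3 and 12.8 in BV-3 susceptible, a log2 fold change of 2.74 ± 0.57 (SE, edgeR adjusted p = 0.0398). It had 0.682, 0.406 and 0.460 FPKM in CK resistant and 1.90, 1.94 and 1.09 in BV-3 resistant, also without overlap but not called (adjusted p = 0.398). The lipid transfer protein SFH6, Zm00001eb253080, had 6.27, 8.27 and 6.57 against 10.3, 14.9 and 16.1 FPKM in the susceptible groups, and rose by 0.96 ± 0.23 (adjusted p = 0.0431).

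The gene that fell was NewGene_3484, an ALP1-like gene with a plant transposon domain, at 0, 1.70 and 1.05 FPKM in CK susceptible, 0.00431, 0 and 0.00504 in BV-3 susceptible and 0.963 to 2.34 in all resistant libraries (edgeR adjusted p = 0.0431). It was a marker gene of the BV-3 resistant libraries. CK susceptible 1 had 0 counts of it and the BV-3 susceptible libraries 1, 0 and 1, all under the floor of 3 counts, so no direction is given against CK susceptible 1. A second gene of this kind, NewGene_1845, had a log2 fold change of -2.94 ± 1.06 in the resistant groups (SE, edgeR adjusted p = 0.426).

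By family, 4 of 10 tested dirigent genes were higher without overlap under BV-3 in the susceptible groups, where 18.6% of all genes were, and 4 of 10 in the resistant groups, where 7.71% were. Their median log2 fold changes were 1.05 and 1.26. The medians in the susceptible groups were 0.51 for 15 Sec14-like genes, 0.86 for 8 Ovate family genes, 1.15 for 4 amidases and -1.85 for 10 transposon-like genes. The transposon-like genes summed to only 6.22, 6.52 and 7.20 FPKM in CK susceptible and 10.5, 3.62 and 2.30 in BV-3 susceptible, which overlapped. Of the 10, 2 were lower without overlap, where 14.1% of all genes were. In 5 of the 10, CK susceptible 1 held the lowest value of the 12 libraries, alone or shared. The median of the 12 others was -0.02. These others included a pair of sigma factors of the plastid RNA polymerase, Zm00001eb012130 and Zm00001eb169360, with a mean of 52.2 and 57.1 FPKM and log2 fold changes of -1.54 and -1.56 (edgeR adjusted p = 0.175 and 0.169), whose BV-3 susceptible libraries lay below the CK susceptible ones.

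Likeness of pattern was measured by Pearson's r of log2(FPKM + 1) over the 12 libraries, which share depth and the libraries that stand apart. The cytosolic tryptophan ligase Zm00001eb054210 was most like the serine ligases Zm00001eb113140 (r = 0.965) and Zm00001eb400980 (r = 0.929) and the tyrosine ligase Zm00001eb416340 (r = 0.927), of which the first and the last are cytosolic. The chloroplastic/mitochondrial proline ligase Zm00001eb300750 was most like the ligases of histidine, Zm00001eb122020 (r = 0.969), asparagine, Zm00001eb321560 (r = 0.952), and isoleucine, Zm00001eb256880 (r = 0.945), all of its own class.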

How the data were processed

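The deposited table held a raw count and an FPKM value per gene and library, per the file headers. The authors computed FPKM. The submitters' processing notes name B73 RefGen version 4, and no aligner or counter is named in the sources used here. Reads of near-identical paralogs may have been split between them, and overlapping or antisense genes may share reads. All 12 libraries entered 1 edgeR quasi-likelihood fit (edgeR 4.0.16, R 4.3.3) with TMM scaling and edgeR's low-count filter, which kept 34291 genes and 8 residual degrees of freedom. The biological coefficient of variation was 0.682. Calls used a Benjamini-Hochberg adjusted p of 0.05 over these genes. DESeq2 1.42.0 and limma 3.58.1 on log2(FPKM + 1) were alternatives. Floors of 3 counts cover counting error only. The procedure was tested on simulated data in which no library stood apart from its group, so that test does not cover such libraries.

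Enzymes were recognised by description and protein domain, locations from the Swiss-Prot description first. 1 member with a cysteine ligase description carried a peptidase domain and was counted with the others. Named genes are the called members, the 6 smallest p of each BV-3 comparison where the higher group averaged 1 FPKM or more, the 6 most abundant cytosolic and organellar genes, and the amidotransferase and formyltransferase genes; examples beyond these were chosen after their values were seen. Members and lists were chosen with earlier results of these data known. Replicate libraries differed by a chi-square per gene of 66.1 to 447, so none was counted as a duplicate.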

Additional observations from a re-analysis of the deposited data

How the results depend on the processing

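Each of the 9 called enzyme genes was fitted with a negative fold change under all 21 alternatives, but each lost its call under 10 to 16 of them. For Zm00001eb384020 the fits without CK susceptible 2 and 3 rested on 2 counts in CK susceptible 1 and 0 in BV-3 susceptible. All are under the floor of 3 counts, so that sign carries no direction. Over 25 named results and 21 alternatives, 343 values kept direction and side of the threshold, 160 lost it, 8 gained it and 14 turned. The number of members called in the susceptible comparison, 12 in the report, ran from 0 to 22 with 1 library left out: 22 without CK resistant 2, 19 without CK susceptible 1, 1 without CK resistant 1 or BV-3 resistant 3, and 0 without any of the 8 others. The genes called ran from 0 to 6946, with 6946 without CK susceptible 1, 5307 without CK resistant 2 and 0 to 76 without any of the others. With 1 library left out, the resistant comparison gave 0 to 3 genes and 0 members, the difference 0 to 2083 genes and 0 to 6 members (6 without CK susceptible 1), the contrast of resistant with susceptible 0 to 2 genes and 0 members under CK, and 0 to 4225 genes and 0 to 11 members under BV-3 (11 without CK susceptible 1, 1 without CK resistant 2).

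For members, the susceptible comparison called 6 without the count filter (1596 genes) and 26 with DESeq2 (7010 genes). DESeq2 called 2 members (1044 genes) in the resistant comparison, 5 (1696) for the difference, 2 (1630) for the contrast of disease classes under CK and 15 (4724) under BV-3. limma on log2(FPKM + 1) called 6, 2, 1 and 2389 genes in these 4, with 7 members in the last; with a pseudocount of 0.1 it called 5 genes, 1 gene, and under BV-3 3044 genes and 11 members; and with a filter of 1 FPKM 12 genes in the resistant comparison and 1993 genes and 6 members under BV-3. Of genes called in the susceptible comparison 37.1% were higher in the report, but 71.9, 65.2 and 69.7% with the 3 limma fits, 52.0% without CK susceptible 1 and 58.2% with the block. Without CK susceptible 2 and 3, where CK susceptible is 1 library whose spread is taken from the other groups, resistant against susceptible gave 1411 genes and 4 members under CK and 3710 and 10 under BV-3, and without CK resistant 2 as well 1696 and 6, and 5932 and 17. limma raised the median of all genes by 0.15, 0.27 and 0.22 under CK and 0.14, 0.21 and 0.17 under BV-3 on the log2 scale.

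The replicate block gave 546 genes and 5 members in the susceptible comparison and 1 gene for resistant against susceptible under BV-3. Same-numbered libraries are not known to be paired: 5 of 18 pairs correlated above 0.1 (range -0.201 to 0.561), and 7 of 12 libraries correlated best with their own number.

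NewGene_3484 was fitted at 2.73 in the susceptible comparison without CK susceptible 2 and 3, with or without CK resistant 2, from libraries all under the floor of 3 counts, so this sign carries no direction. In the resistant comparison, where no subunit was called, subunit A turned to 0.12 without CK resistant 1 and 0.16 without BV-3 resistant 2 (range with 1 library left out -0.41 to 0.16), subunit C to 0.12 and 0.11 in these fits, and subunit B to -0.050, -0.058 and -0.050 with the 3 limma fits, -0.16 without CK resistant 2, -0.06 without BV-3 resistant 1, -0.23 without BV-3 resistant 3 (range -0.23 to 0.41), -0.16 without 3 libraries and -0.0026 with the replicate block. The cause was not tested.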
